A study of Drosophila melanogaster with 23 samples.

Results

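Amylases and maltases are the digestive enzymes that break starch and sugars down in the fly midgut. The 10 genes described here were taken from a list of FlyBase symbols and matched by gene ID to 10 of the 17714 genes in the expression tables. They were 3 amylase genes (Amy-p, Amy-d and Amyrel) and 7 maltase genes (Mal-A1, Mal-A2, Mal-A3, Mal-A4, Mal-A6, Mal-A7 and Mal-A8). All 10 passed the filter on low counts in both expression models.

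Amylase cuts dietary starch into maltose and short glucose chains. Maltases, which are alpha-glucosidases, then release glucose from maltose, from sucrose and from the ends of those chains. In adult flies both kinds of enzyme are made mainly by enterocytes, the absorptive cells of the midgut, and their transcripts are known to fall on food rich in glucose, a response in which the Activin-like ligand Dawdle, its mediator Smox and the transcription factor Sugarbabe take part.

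Midgut RNA was sequenced from flies that expressed one of 3 constructs, or a control, in an ubiquitous expression model (11 libraries) or an ISC-restricted expression model (12 libraries). The constructs were named OKSM, Sen and OKSM-Sen. OKSM was UAS-OKSM, the human reprogramming factors Oct4, Klf4, Sox2 and Myc. Sen was UAS-Sen, a short peptide intended to remove senescent cells, and OKSM-Sen was UAS-Sen with UAS-OKSM. The study's results say that Sen was modelled on the peptide FOXO4-DRI and based on the Drosophila foxo gene. Its methods instead name a fragment of Drosophila Fork Head protein. The control, named WT, expressed the fluorescent protein TdTomato (UAS-TdTomato). For the sequenced midguts the study describes constant expression of the constructs, not expression in timed cycles. In its lifespan experiments constant expression was detrimental, while expression limited to short periods extended lifespan. The question put to the libraries here is how the transcripts of starch and sugar digestion compared between each construct and WT, and between the models.

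In the ubiquitous model the construct groups carried armGal4 with tubGal80ts, and in the ISC-restricted model esgGal4 with tubGal80ts. The study's methods also list UAS-GFP in these crosses and give the WT flies the same drivers, while the series' own design text writes the WT genotypes without a Gal4 driver. The armadillo driver is active in most tissues, and the escargot driver is active in intestinal stem cells (ISCs) and enteroblasts and is not known for activity in mature enterocytes. The study's own transgenes, OKSM and Sen, were injected into the genomic landing site attP2, while UAS-TdTomato came from a stock line. The list of fly lines also gives UAS-dCas9.VPR in the esgGal4 stock. All groups shared a standard food that contained glucose, cornmeal and yeast. Each group had 3 libraries, except that ubiquitous Sen had 2, numbered 2 and 3. Age and sex of the flies behind the libraries, and whether replicates were separate cohorts, were not found in the sources used, and the p-values reflect the variation among these libraries, which may be technical.

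The libraries of the ISC-restricted model are labelled as intestinal stem cells, but the study's text describes dissected midguts, and the marker genes were those of whole gut. Enterocyte markers summed to between 4760 and 7648 CPM (counts scaled to library size) in these 12 libraries, and ISC and enteroblast markers to between 58.0 and 177 CPM. Total counts ran from 33438269 to 46324866 in the ubiquitous model and from 14626936 to 18974759 in the ISC-restricted model. The labels of Sen replicate 3 and OKSM-Sen replicate 3 of the ISC-restricted model were exchanged by the submitters after deposit, and the calls that use this pair were also made without it. In bulk midgut, fewer cells of a type and less RNA per cell cannot be told apart.

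The 10 genes lie at 3 places on chromosome arm 2R (positions from the BDGP6.54 annotation). The 7 maltase genes sit in a cluster of 24298 bp, from 8449664 to 8473961, in the order Mal-A1 to Mal-A8 with Mal-A5 between Mal-A4 and Mal-A6. Mal-A5 was not in the list and was close to silent, at 1.04 to 2.87 TPM (a level scaled for transcript length and library size) over the 23 libraries. Amyrel lies alone from 16651095 to 16652699 on the minus strand. Amy-p (17118636 to 17120303, minus strand) and Amy-d (17124764 to 17126369, plus strand) are near-identical copies that point away from each other with 4460 bp between them. They were the 2 members with fractional counts, which arise where reads fit both copies, so the division of reads between them is uncertain and their sum is given as well. Exons of Amyrel shared 31 of 1549 bases with gprs, those of Mal-A1 82 of 1826 bases with Cyp4e1 and those of Mal-A8 6 of 1814 bases with mtt, and none of these neighbours passed 3.52 TPM in any library.

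These genes were among the more abundant transcripts of the gut, taking between 1.02% and 2.77% of all counts in a library of the ISC-restricted model and between 2.10% and 5.62% in the ubiquitous model. On the TPM scale Amy-p (4386 TPM), Mal-A1 (4149 TPM) and Amy-d (2885 TPM) led the mean over all 23 libraries. Mal-A6 followed at 1640 TPM, then Mal-A4 at 894, Mal-A7 at 786, Mal-A8 at 608, Mal-A3 at 411 and Mal-A2 at 327 TPM. Amyrel, a diverged amylase, was the least abundant at 98.6 TPM. Neighbours in this order often differed by less than their spread over libraries. In the ISC-restricted model Mal-A1 (3463 ± 1101 TPM, SD, n = 12) and Amy-p (3293 ± 1340.0 TPM) overlapped widely, as did Amy-d (1227 ± 541 TPM) and Mal-A6 (1013 ± 261 TPM). In the ubiquitous model the same held for Amy-p (5578 ± 1469 TPM, SD, n = 11), Mal-A1 (4897 ± 1503 TPM) and Amy-d (4694 ± 1214 TPM). These SDs pool all groups of a model and do not compare genes within a library. Within libraries, Amy-p exceeded Amy-d in every ubiquitous library but OKSM replicate 1. Amyrel varied most for its level, from 0.23 to 101 TPM in the ISC-restricted model and from 0.88 to 345 TPM in the ubiquitous model.

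**Figure D1:**
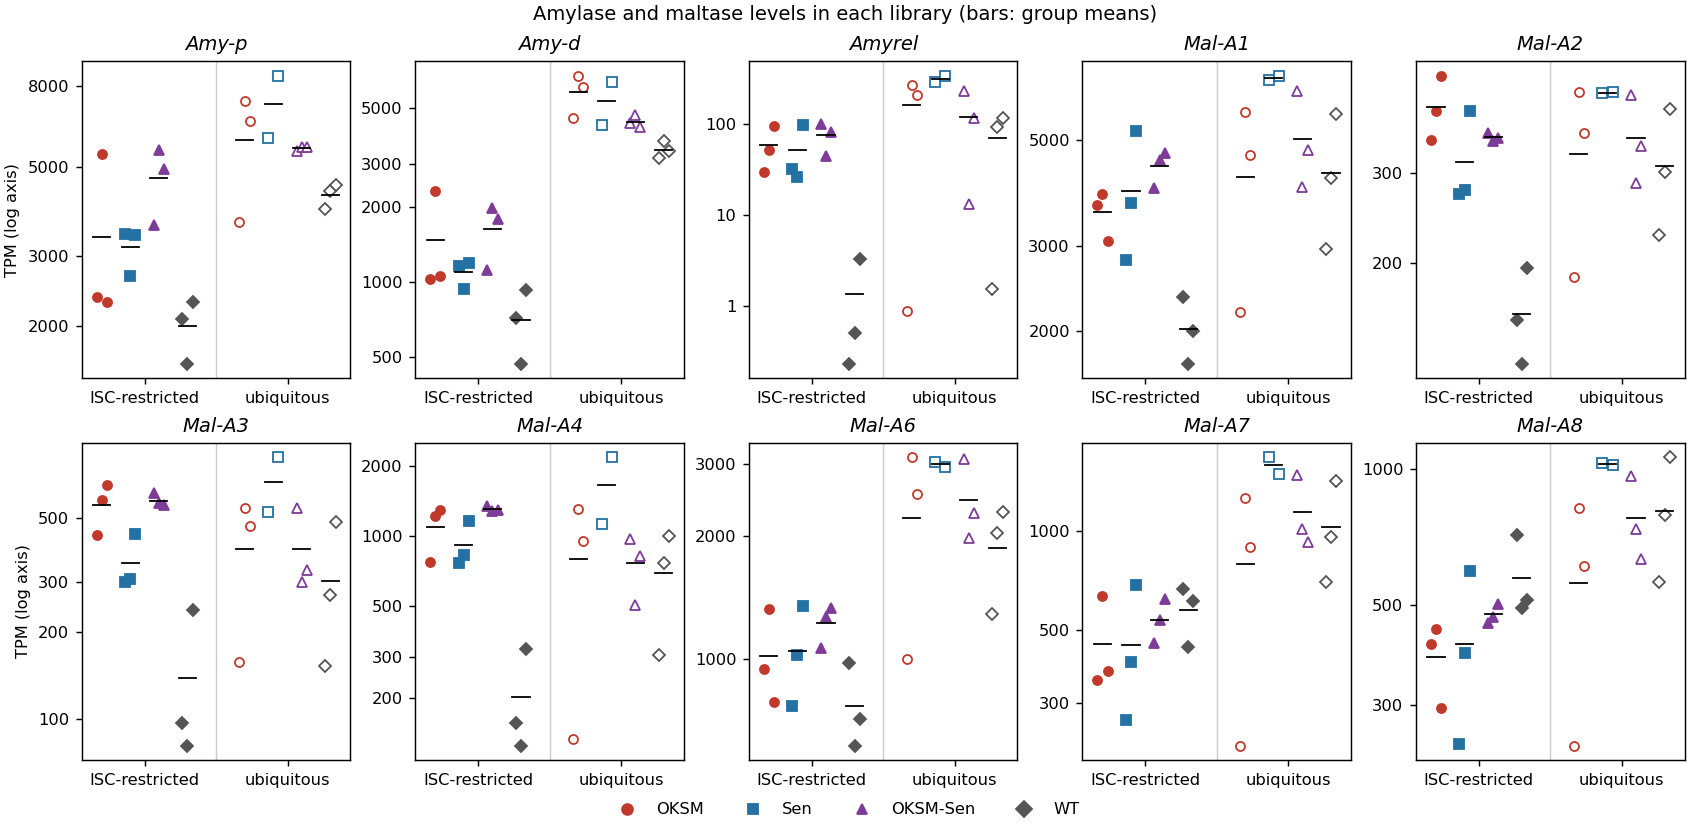
TPM (log axis) of each of the 10 genes in each of the 23 libraries, by construct (OKSM, Sen, OKSM-Sen, then WT) within the ISC-restricted (filled) and ubiquitous (open) models, with bars at the group means. In the ISC-restricted model the WT libraries lie below every construct library for Amyrel and Mal-A1 to Mal-A4, while in the ubiquitous model a library of OKSM and a library of WT lie at the bottom of most panels.

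In the ISC-restricted model, 5 of the 10 genes were higher in each of the 3 constructs than in WT: Amyrel and the maltases Mal-A1, Mal-A2, Mal-A3 and Mal-A4. With edgeR at an FDR of 10%, 6 of 10 members were called higher in OKSM against WT, 5 of 10 in Sen against WT and 7 of 10 in OKSM-Sen against WT, and no member was called lower. Over all genes tested, 17.3%, 18.2% and 15.7% were called higher in OKSM, Sen and OKSM-Sen. The median log2 fold change of the members was 0.84 with OKSM, 0.64 with Sen and 0.95 with OKSM-Sen, beside 0.01, -0.02 and 0.02 over all genes tested. The 3 comparisons share the same 3 WT libraries, so they are not independent of each other. The share of all genes called higher in all 3 constructs is not given. The count of 5 genes higher in each construct therefore has no background. Over the 4 conditions together 5 members were called, again Amyrel and Mal-A1 to Mal-A4, where 35.7% of all genes were called.

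Amyrel differed most. It stood at 50.7, 84.4 and 139.5 CPM in OKSM, at 49.1, 42.1 and 149 CPM in Sen and at 144, 67.0 and 119 CPM in OKSM-Sen, against 0.381, 0.889 and 5.94 CPM in WT. The WT values rested on 6, 14 and 97 counts, and every construct library held at least 712. Amyrel was therefore close to absent in WT guts and present in every construct library, with no overlap. The log2 fold change against WT was 5.24 ± 0.94 (SE) in OKSM (edgeR FDR = 0.00527), 5.04 ± 0.94 in Sen (FDR = 0.00456) and 5.50 ± 0.95 in OKSM-Sen (FDR = 0.00469). WT replicate 3 held most of the WT counts, and without it the log2 fold changes were 7.15, 6.96 and 7.42.

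Of the maltases, Mal-A4 rose most. It reached 1529, 2325 and 2221 CPM in OKSM, 1362, 1545 and 2049 CPM in Sen and 2246, 2288 and 2239 CPM in OKSM-Sen, against 301, 256 and 690.0 CPM in WT. The lowest construct library thus lay well above the highest WT library. Mal-A4 was 4.87-fold higher in OKSM (log2 2.28 ± 0.35, edgeR FDR = 0.00228), 3.97-fold higher in Sen (1.99 ± 0.35, FDR = 0.00256) and 5.43-fold higher in OKSM-Sen (2.44 ± 0.35, FDR = 0.00171).

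Mal-A3, its neighbour on the side of Mal-A2, came next. It stood at 873, 1115 and 1137 CPM in OKSM, at 538, 578 and 790.1 CPM in Sen and at 1029.6, 1014 and 964 CPM in OKSM-Sen, against 188, 166 and 511 CPM in WT. The groups did not overlap, but the lowest Sen library was close to WT replicate 3, which was the highest WT library for Mal-A3, Mal-A4 and Amyrel alike. The fold was 3.61 in OKSM (log2 1.85 ± 0.38, edgeR FDR = 0.00788), 2.20 in Sen (1.14 ± 0.37, FDR = 0.0447) and 3.48 in OKSM-Sen (1.80 ± 0.38, FDR = 0.00957). The Sen call for Mal-A3 was lost without Sen replicate 3 (log2 0.95, FDR = 0.136), without WT replicate 1 (0.91, FDR = 0.137) or without WT replicate 2 (0.86, FDR = 0.125). Without WT replicate 3 the log2 fold change was 1.84 in Sen, 2.56 in OKSM and 2.50 in OKSM-Sen.

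Mal-A2 showed a smaller but tighter difference. It stood at 805, 886 and 937 CPM in OKSM, at 565, 603 and 822 CPM in Sen and at 703, 719 and 709.9 CPM in OKSM-Sen, against 347, 301 and 480.3 CPM in WT. Its log2 fold change was 1.22 ± 0.18 in OKSM (edgeR FDR = 0.00154), 0.82 ± 0.18 in Sen (FDR = 0.00663) and 0.92 ± 0.18 in OKSM-Sen (FDR = 0.00545), with no overlap between any construct and WT. These were the smallest standard errors among the members.

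Mal-A1, the most abundant maltase, rose less. It stood at 7466, 7597 and 5458 CPM in OKSM, at 5122, 7076 and 9535 CPM in Sen and at 6845, 8313 and 8349.6 CPM in OKSM-Sen, against 4649, 3574 and 4331 CPM in WT. Again no construct library fell within the WT range. The log2 fold change was 0.71 ± 0.22 in OKSM (edgeR FDR = 0.0376), 0.79 ± 0.22 in Sen (FDR = 0.0207) and 0.91 ± 0.22 in OKSM-Sen (FDR = 0.0152). The OKSM call for Mal-A1 was lost without OKSM replicate 2 (log2 0.63, FDR = 0.105), without WT replicate 2 (0.61, FDR = 0.133) or when all 8 groups were fitted together (0.69, FDR = 0.119).

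The other 3 maltases of the cluster, Mal-A6, Mal-A7 and Mal-A8, were not called in any construct. Mal-A6 had log2 fold changes of 0.32 ± 0.26 with OKSM, 0.29 ± 0.26 with Sen and 0.46 ± 0.26 with OKSM-Sen. It ran from 1452 to 2723 CPM in OKSM, from 1460.1 to 2569 CPM in Sen and from 1919 to 2483 CPM in OKSM-Sen, against 1342 to 2015 CPM in WT. Mal-A7 ran from 714 to 1346 CPM in OKSM, from 526 to 1356 CPM in Sen and from 852 to 1192 CPM in OKSM-Sen, against 1005 to 1439 CPM in WT. The groups of both genes overlapped. Mal-A7 had log2 fold changes of -0.45 ± 0.34, -0.51 ± 0.34 and -0.32 ± 0.34 in the same order. Mal-A8 had negative values throughout: it stood at 829.6, 864 and 519 CPM in OKSM, at 447, 742 and 1076 CPM in Sen and at 781, 854 and 888 CPM in OKSM-Sen, against 1403, 1022 and 1101 CPM in WT. Its log2 fold change was -0.67 ± 0.29 in OKSM (edgeR FDR = 0.118), -0.64 ± 0.29 in Sen (FDR = 0.127) and -0.48 ± 0.29 in OKSM-Sen (FDR = 0.268). OKSM and OKSM-Sen libraries of Mal-A8 all lay below WT, without passing the threshold in edgeR, while DESeq2 called Mal-A8 lower in OKSM and in Sen.

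Within the 24298 bp cluster, then, the 4 called genes were the 4 at the Mal-A1 end and the 3 that were not called were those at the Mal-A8 end. This division was seen in the results and was not tested. The ratio of Mal-A4 to Mal-A8 TPM, which compares 2 genes within the same library, was 1.88, 2.74 and 4.36 in OKSM, 3.10, 2.12 and 1.94 in Sen and 2.93, 2.73 and 2.57 in OKSM-Sen, against 0.219, 0.255 and 0.638 in WT. This pair of genes was picked from the results, so its ratio describes the division and is no support for it. The ratio of Mal-A3 to Mal-A7 TPM, another pair taken from the same division, ran from 0.914 to 1.75 in OKSM, from 0.643 to 1.13 in Sen and from 0.893 to 1.34 in OKSM-Sen, against 0.146 to 0.392 in WT. The summed TPM of Mal-A1 to Mal-A4 ran from 5218 to 6043 in OKSM, from 4140 to 7207 in Sen and from 6271 to 6892 in OKSM-Sen, against 2038 to 2758 in WT. The summed TPM of Mal-A6 to Mal-A8 overlapped between the groups, at 1452 to 2398 in OKSM, 1277 to 2625 in Sen and 1976 to 2458 in OKSM-Sen, against 1547 to 2352 in WT. Both sums, like the ratios, follow the division and are no support for it. Most of the Mal-A1 to Mal-A4 sum was Mal-A1. The other sum joins Mal-A6, with positive log2 fold changes in each construct, to Mal-A7 and Mal-A8, with negative ones. Mal-A5, in the middle, had uncalled log2 fold changes of -0.52 with OKSM, -0.44 with Sen and -0.19 with OKSM-Sen.

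**Figure D2:**
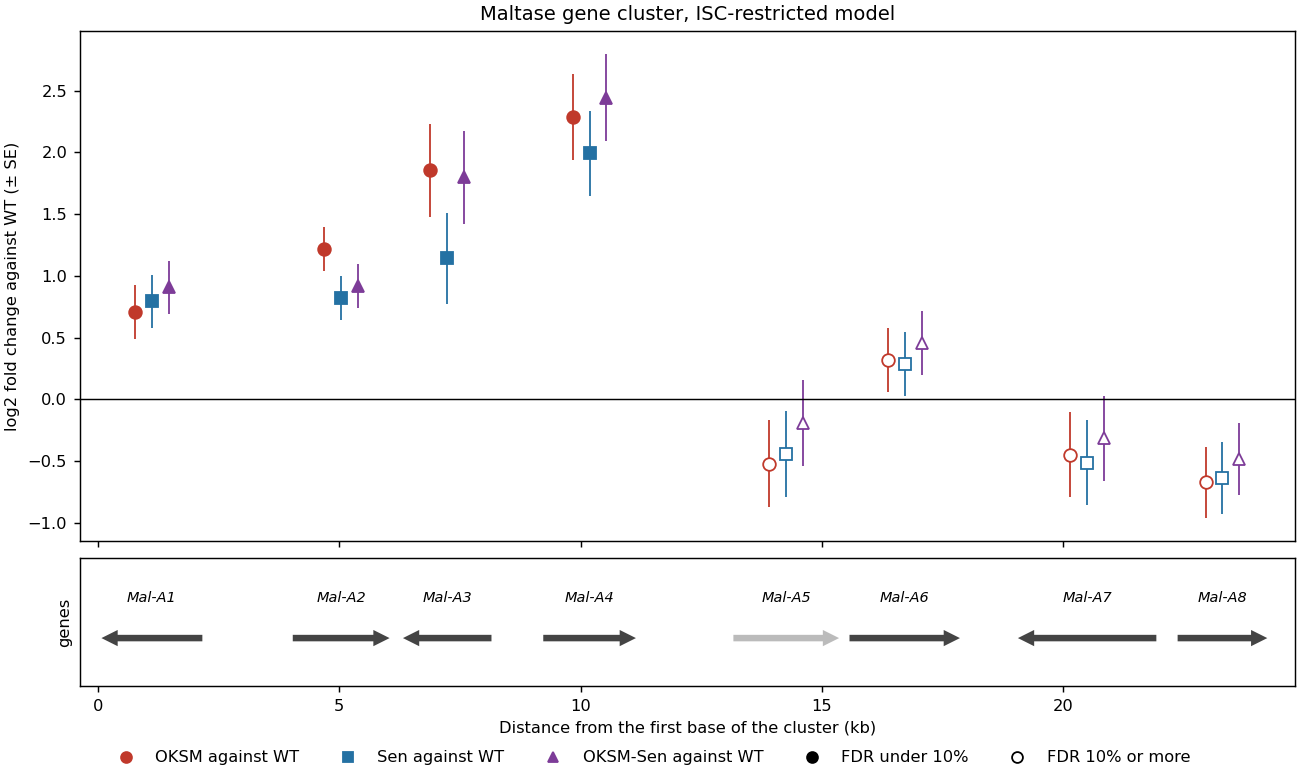
Log2 fold change against WT (± SE, edgeR) of the maltase genes in the ISC-restricted model, placed by distance in kb from the first base of the cluster, with OKSM, Sen and OKSM-Sen as circles, squares and triangles, filled where the FDR was under 10%. Arrows show each gene's length and direction (Mal-A5, in grey, was not in the list); the filled points are those of Mal-A1 to Mal-A4, up to 2.44 for Mal-A4 in OKSM-Sen.

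The main amylases were less clear. Amy-p stood at 4119, 9088 and 3479.8 CPM in OKSM, at 5324, 4375 and 5313 CPM in Sen and at 5288, 8658 and 7525 CPM in OKSM-Sen, against 3531, 2881 and 4261 CPM in WT. All Sen and OKSM-Sen libraries exceeded WT, while 2 of the 3 OKSM libraries lay within the WT range. Its log2 fold change was 0.64 ± 0.33 in OKSM (edgeR FDR = 0.186), 0.49 ± 0.33 in Sen (FDR = 0.295) and 1.01 ± 0.33 in OKSM-Sen (FDR = 0.0572). Amy-d stood at 1809, 3961 and 1624 CPM in OKSM, at 1828, 1546 and 1876 CPM in Sen and at 1654, 3143 and 2737 CPM in OKSM-Sen, against 1220.4, 845 and 1730.5 CPM in WT. Each construct overlapped WT replicate 3 for Amy-d. Its log2 fold change was 0.96 ± 0.38 in OKSM (FDR = 0.0939), 0.47 ± 0.38 in Sen (FDR = 0.383) and 0.99 ± 0.38 in OKSM-Sen (FDR = 0.0929).

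The amylase calls were fragile. OKSM replicate 2 was the highest library for both genes, and without it Amy-d had a log2 fold change of 0.44 in OKSM (edgeR FDR = 0.351). The Amy-d call in OKSM was also lost without Sen replicate 1, 2 or 3, OKSM-Sen replicate 3, or WT replicate 1 or 2 (FDR = 0.114 to 0.258). That in OKSM-Sen was lost without Sen replicate 1, 2 or 3, OKSM-Sen replicate 2 or 3, or WT replicate 1 or 2 (FDR = 0.113 to 0.263). The Amy-p call in OKSM-Sen was lost without OKSM-Sen replicate 2 or 3 or WT replicate 1 or 2 (FDR = 0.132 to 0.181). For the sum of both genes, on which the division of shared reads has little bearing, the log2 fold change was 0.73 ± 0.34 in OKSM (FDR = 0.144), 0.49 ± 0.34 in Sen (FDR = 0.313) and 1.00 ± 0.34 in OKSM-Sen (FDR = 0.0633).

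Counted without a test, 5 members with OKSM, 6 with Sen and 6 with OKSM-Sen had every construct library above every WT library, where 21.2%, 22.6% and 21.5% of all genes did. Mal-A8 was the 1 member with every construct library below WT, in OKSM and OKSM-Sen, where 18.8% of all genes did in each. Members are not independent of each other in such counts. Their log2 CPM correlated over the 12 libraries from r = -0.572 (Amyrel and Mal-A8) to 0.981 (Amyrel and Mal-A4).

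Leaving out the relabelled pair changed some calls, as an alternative chosen after seeing the data. In Sen, 5 members were then called, of which Mal-A2, Mal-A4 and Amyrel were called higher as before, Mal-A7 and Mal-A8 were called lower, and Mal-A1 and Mal-A3 were not called. In OKSM-Sen the 5 genes Amyrel and Mal-A1 to Mal-A4 remained, and Amy-p (edgeR FDR = 0.167) and Amy-d (FDR = 0.242) were lost. In OKSM the same 5 genes remained, Amy-d was lost (FDR = 0.149), and Mal-A8 was called lower. Over the 4 conditions 5 members were called without the pair.

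**Figure D3:**
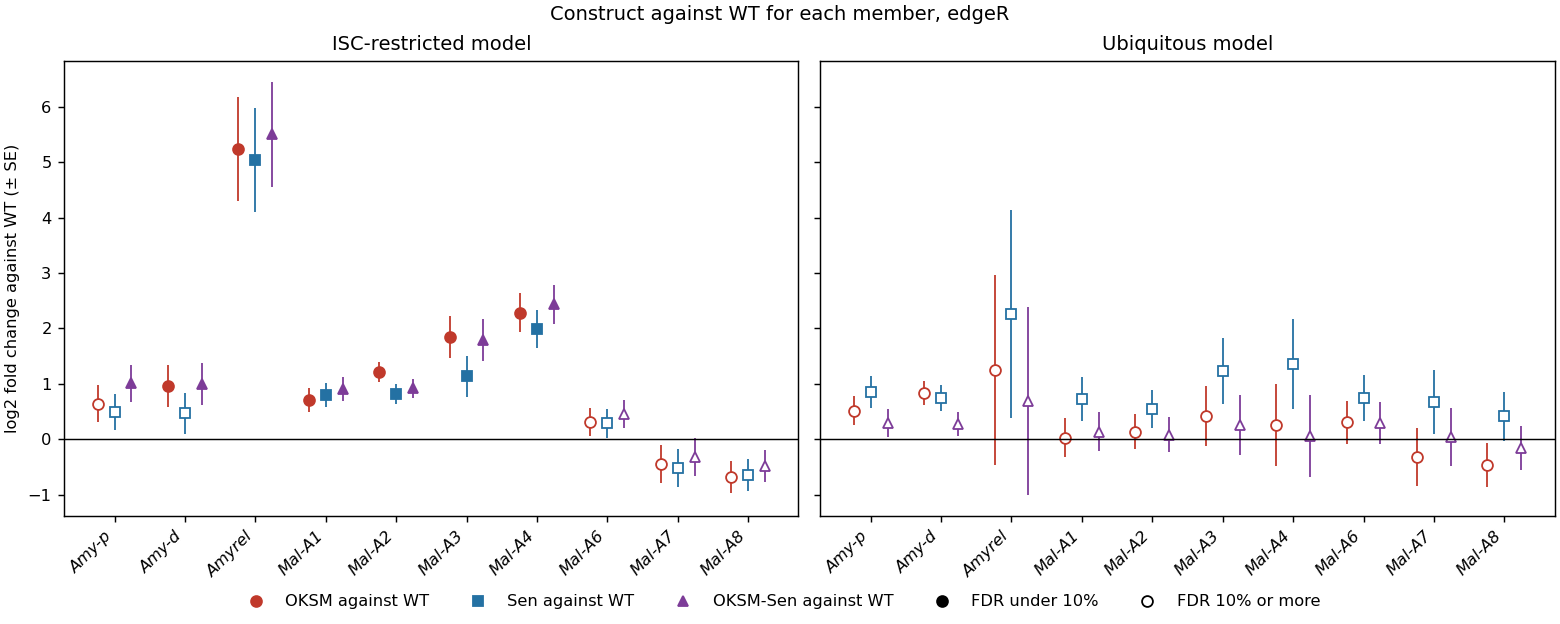
Log2 fold change against WT (± SE, edgeR) of each member for OKSM (circles), Sen (squares) and OKSM-Sen (triangles) in the ISC-restricted model (left) and the ubiquitous model (right), filled where the FDR was under 10%. All filled points, 18 over the 3 constructs, are in the ISC-restricted model and above 0.

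The constructs were also compared with each other in the ISC-restricted model. None of the 10 members was called in OKSM-Sen against OKSM, in OKSM-Sen against Sen or in Sen against OKSM, where 0.672%, 0.555% and 5.04% of all genes were. At an unadjusted p under 0.05, edgeR gave 0, 0 and 1 members, and DESeq2 called 0. The shares of all genes called, here and below, are those of edgeR at an FDR of 10%. They are no background for counts at an unadjusted p or from DESeq2. Log2 fold changes ran from -0.30 to 0.36 in OKSM-Sen against OKSM, from 0.10 to 0.66 in OKSM-Sen against Sen and from -0.71 to 0.08 in Sen against OKSM. Mal-A3 in Sen against OKSM, at -0.71, was called when WT replicate 3 was left out (edgeR FDR = 0.0426). Without the relabelled pair edgeR called 0 members in these comparisons.

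The interaction term asks whether the combined construct differed from what both single constructs add up to on the log2 scale. It was called for 3 members, all negative: Mal-A2 (-1.12 ± 0.25, edgeR FDR = 0.0182), Amyrel (-4.77 ± 1.17, FDR = 0.0306) and Mal-A4 (-1.83 ± 0.48, FDR = 0.0331), where 11.4% of all genes were called negative. For Mal-A4 the values behind it were 2.44 in OKSM-Sen, beside 2.28 in OKSM and 1.99 in Sen, so that the combination stood near either construct alone. Amyrel and Mal-A4 were not called without the relabelled pair (FDR = 0.128 and 0.143) or when all 8 groups were fitted together (FDR = 0.151 and 0.169), while Mal-A2 was called in both. Leaving out 1 library moved the Amyrel value between -6.69 (without WT replicate 3) and -3.96, with an FDR of at most 0.0793.

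In the ubiquitous model none of the 10 members was called in any construct against WT. In OKSM, Sen and OKSM-Sen against WT, 1.09%, 2.48% and 1.16% of all genes were called. At an unadjusted p under 0.05, edgeR gave 1 member with OKSM, 2 with Sen and 0 with OKSM-Sen. DESeq2 called Amy-d in OKSM, Amy-d and Amy-p in Sen and none in OKSM-Sen. The shares of all genes at that p, or called by DESeq2, are not given, so these counts have no background. Over the 4 conditions edgeR called none (2.61% of all genes) with 1 under an unadjusted p of 0.05, and DESeq2 called 1. Between constructs edgeR called none, where 0.301%, 1.8% and 1.25% of all genes were called in OKSM-Sen against OKSM, OKSM-Sen against Sen and Sen against OKSM, with 1 member under an unadjusted p of 0.05 in the first and DESeq2 calling 0. Standard errors of the log2 fold changes ran from 0.21 to 1.88, so differences of the size seen for Mal-A1 in the other model could have been missed for most members.

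Amy-d and Amy-p had the smallest errors in this model. Amy-d stood at 8316, 12239 and 10308 CPM in OKSM, at 6885 and 12404 CPM in Sen and at 6977, 7282 and 6688 CPM in OKSM-Sen, against 5379, 6084 and 5845 CPM in WT. Every construct library of Amy-d lay above every WT library. The log2 fold change was 0.83 ± 0.21 in OKSM (edgeR FDR = 0.164), 0.74 ± 0.24 in Sen (FDR = 0.192) and 0.28 ± 0.21 in OKSM-Sen (FDR = 0.858). Amy-p stood at 6624, 13164 and 10969.5 CPM in OKSM, at 9451 and 16431 CPM in Sen and at 8759, 8675 and 8868 CPM in OKSM-Sen, against 6628, 7122 and 7756 CPM in WT. OKSM replicate 1 lay just under the lowest WT library and all other construct libraries above the highest. The log2 fold change of Amy-p was 0.52 ± 0.26 in OKSM (FDR = 0.563), 0.85 ± 0.28 in Sen (FDR = 0.212) and 0.29 ± 0.26 in OKSM-Sen (FDR = 0.903). For the sum of both genes it was 0.67 ± 0.23 in OKSM (edgeR FDR = 0.327), 0.80 ± 0.26 in Sen (FDR = 0.193) and 0.28 ± 0.23 in OKSM-Sen (FDR = 0.887).

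Amyrel again ran from near absence to high levels, here within groups. It stood at 1.54, 475 and 341 CPM in OKSM, at 452 and 644 CPM in Sen and at 355, 20.0 and 179.5 CPM in OKSM-Sen, against 2.49, 146 and 195 CPM in WT. OKSM replicate 1 held 63 counts of Amyrel, WT replicate 1 held 94 and OKSM-Sen replicate 2 held 710, and the other 8 libraries held between 5085 and 23211. The log2 fold changes of Amyrel, 1.25 ± 1.72 with OKSM, 2.26 ± 1.88 with Sen and 0.69 ± 1.70 with OKSM-Sen, had errors as large as themselves or nearly so.

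The maltases also varied widely within groups of the ubiquitous model. Mal-A4 stood at 276, 2662 and 1820.3 CPM in OKSM, at 2026 and 4785 CPM in Sen and at 1759.7, 884 and 1474 CPM in OKSM-Sen, against 589, 1416 and 1961 CPM in WT. Mal-A1 stood at 4627, 11983 and 9096 CPM in OKSM, at 12402 and 15373 CPM in Sen and at 11768, 7194 and 8742 CPM in OKSM-Sen, against 5835, 7943 and 11382 CPM in WT. Over the 11 libraries Mal-A2 ran from 451 to 1106 CPM, Mal-A3 from 296 to 1804, Mal-A6 from 2199.7 to 6952, Mal-A7 from 523 to 3743 and Mal-A8 from 511 to 2284 CPM. OKSM replicate 1 and WT replicate 1 were the lowest pair of libraries for 9 of the 10 members, and Sen replicate 3 was the highest library for all 10. Over the expressed genes, OKSM replicate 1 stood far from the rest of its group. Its mean squared difference per gene, relative to sampling noise, was 504 from replicate 2 and 417 from replicate 3. Between replicates 2 and 3 it was 51.6. All 10 members had positive log2 fold changes in Sen, from 0.41 ± 0.44 for Mal-A8 to 2.26 for Amyrel with a median of 0.74, and none was called. The 7 maltases had values from -0.47 ± 0.40 (Mal-A8) to 0.42 ± 0.54 (Mal-A3) in OKSM and from -0.15 ± 0.40 (Mal-A8) to 0.29 ± 0.38 (Mal-A6) in OKSM-Sen. In 8 of 10 members both Sen libraries exceeded all WT libraries, where 12.6% of all genes did, and the same was so of Amy-d in OKSM (7.11% of all genes) and of Amy-p and Amy-d in OKSM-Sen (6.81%). These members are not independent of each other. Their log2 CPM correlated over the 11 libraries from r = 0.106 (Amy-d and Mal-A8) to 0.985 (Mal-A1 and Mal-A2). Leaving out the 3 libraries numbered 1, an alternative chosen after seeing the data, gave no call either.

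The interaction in the ubiquitous model called none of the members, where 1.06% of all genes were called. Its values included -1.30 ± 0.32 for Amy-d (edgeR FDR = 0.139) and -1.08 ± 0.38 for Amy-p (FDR = 0.285). These were the 2 members under an unadjusted p of 0.05, and DESeq2 called 2. Neither count has a share of all genes beside it.

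Whether a construct acted differently in the ISC-restricted and the ubiquitous model was tested as the difference of its effects in a fit of all 23 libraries. No member was called for OKSM, Sen or OKSM-Sen, where 4.12%, 27.3% and 1.46% of all genes were. At an unadjusted p under 0.05, edgeR gave 2, 0 and 4 members, and DESeq2 called Mal-A2 for OKSM and Mal-A4 for OKSM-Sen. For these counts no share of all genes is given. The values for Mal-A4, ISC-restricted minus ubiquitous, were 2.00 ± 0.85 for OKSM (edgeR FDR = 0.22) and 2.37 ± 0.85 for OKSM-Sen (FDR = 0.196), and that for Mal-A2 in OKSM was 1.05 ± 0.37 (FDR = 0.147). Without the relabelled pair edgeR also called 0. The calls in one model and their absence in the other were therefore not shown to be a difference between the models for any single member. Without WT replicate 3 of the ISC-restricted model 4 such differences were called, those of Mal-A2 (1.27, FDR = 0.0655) and Mal-A3 (2.11, FDR = 0.0693) for OKSM and of Mal-A3 (2.22, FDR = 0.0743) and Mal-A4 (2.95, FDR = 0.0865) for OKSM-Sen. That of Mal-A2 for OKSM was also called without OKSM replicate 2 of the ubiquitous model (FDR = 0.0872), and that of Mal-A4 for OKSM-Sen without OKSM replicate 1 (FDR = 0.0816).

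The WT libraries themselves differed between the models. Of the 10 members, 7 were called lower in ISC-restricted WT than in ubiquitous WT and none higher, where 9.97% of all genes were called lower. Amy-d had 1220.4, 845 and 1730.5 CPM in ISC-restricted WT, against 5379, 6084 and 5845 CPM in ubiquitous WT (log2 -2.37 ± 0.34, edgeR FDR = 8.99e-05). This value depends on how shared reads were divided. Amy-d held 22.7% to 28.9% of the pair's counts in ISC-restricted WT, against 43.0% to 46.1% in ubiquitous WT. For the sum of Amy-p and Amy-d the log2 difference was -1.60 ± 0.32 (edgeR FDR = 0.0021). Amyrel had a log2 difference of -5.74 ± 1.73 (FDR = 0.0354), Mal-A4 of -1.85 ± 0.62 (FDR = 0.055), Mal-A6 of -1.39 ± 0.35 (FDR = 0.012), Amy-p of -1.19 ± 0.32 (FDR = 0.0181), Mal-A1 of -1.18 ± 0.31 (FDR = 0.0164) and Mal-A2 of -1.05 ± 0.27 (FDR = 0.0124). Mal-A3 (-1.20 ± 0.49), Mal-A7 (-0.99 ± 0.47) and Mal-A8 (-0.60 ± 0.37) were not called. The Amyrel call was lost without ISC-restricted WT replicate 1 (FDR = 0.118) or 2 (FDR = 0.135), and the Mal-A4 call without either of these (FDR = 0.166 and 0.196) or ubiquitous WT replicate 2 (FDR = 0.109) or 3 (FDR = 0.160). Without the relabelled pair the same 7 members were called. Driver, depth and sequencing all go with the model and cannot be told apart in this comparison.

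Amy-d made up a larger part of the amylase pair in OKSM than in the other groups of its model. Its share of the summed Amy-p and Amy-d counts in the ISC-restricted model was 30.5%, 30.4% and 31.8% in OKSM, 25.6%, 26.1% and 26.1% in Sen and 23.8%, 26.6% and 26.7% in OKSM-Sen, against 25.7%, 22.7% and 28.9% in WT. In the ubiquitous model it was 55.7%, 48.2% and 48.4% in OKSM, 42.1% and 43.0% in Sen and 44.3%, 45.6% and 43.0% in OKSM-Sen, against 44.8%, 46.1% and 43.0% in WT. In both models the OKSM libraries had the highest shares, above every library of the other groups, while Sen, OKSM-Sen and WT overlapped. This pattern was noticed in the data and was not tested, and since the copies share reads, the shares depend on how the counting divided them.

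**Figure D4:**
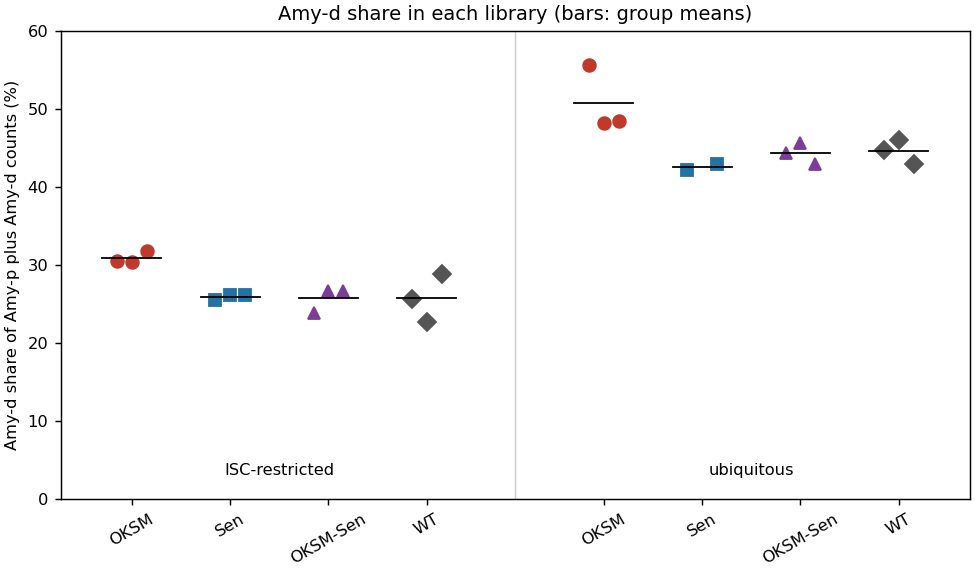
Amy-d as a percentage of the summed Amy-p and Amy-d counts in each library, for OKSM, Sen, OKSM-Sen and WT in the ISC-restricted model (left) and the ubiquitous model (right), with bars at the group means. The OKSM libraries, at 30.4% to 31.8% and 48.2% to 55.7%, lie above the others of their model.

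Other genes of carbohydrate digestion and sugar sensing were read from lists. Among 16 other carbohydrate hydrolases in the ISC-restricted model, 3 were called higher and 1 lower in OKSM, 2 higher and 3 lower in Sen, and 3 higher and 1 lower in OKSM-Sen. Over all genes tested in this model, 17.3% were called higher and 15% lower in OKSM, 18.2% and 18.3% in Sen, and 15.7% and 13.3% in OKSM-Sen. These shares are the background for each of the lists in the ISC-restricted model. The glucocerebrosidases Gba1b (log2 2.62 in OKSM, 1.61 in Sen, 1.95 in OKSM-Sen) and Gba1a (2.05, 1.53 and 1.74) rose in all constructs. CG9485, a glycogen debranching enzyme, fell by 0.58 with OKSM, 1.22 with Sen and 0.62 with OKSM-Sen on the log2 scale. The chitinase family gene Cht9 was called at 0.67 in OKSM and -0.62 in Sen, Cht8 at -1.60 in Sen and GCS2alpha, a glucosidase of glycoprotein processing, at 0.20 in OKSM-Sen. Of the remaining alpha-glucosidases, tobi was at 218 to 1134 TPM and Mal-B1 and Mal-B2 at no more than 7.15 TPM in this model, and none of these was called.

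Of 16 genes of sugar transport and use, 2 were higher and 2 lower in OKSM and in OKSM-Sen, and 2 higher and 3 lower in Sen. Hexokinase A (Hex-A), which phosphorylates glucose on entry, rose by 0.49 with OKSM, 0.86 with Sen and 0.57 with OKSM-Sen on the log2 scale, and the sugar transporter sut1 by 0.42 in OKSM and 0.44 in OKSM-Sen. Glycogen synthase (Glys: -0.67, -0.63 and -0.52) and phosphoglucose isomerase (Pgi: -0.52, -0.57 and -0.38) fell in all constructs. In Sen, the sugar transporter gene Slc45-1 was called at 3.48 and sut2 at -0.94.

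Of 16 regulators of the sugar response, 8 were called lower with OKSM, 8 with Sen and 6 with OKSM-Sen, and 0, 1 and 1 were called higher. Over all genes, 15%, 18.3% and 13.3% were called lower. The median of the list was -0.57 with OKSM, -0.42 with Sen and -0.30 with OKSM-Sen. The transcription factor foxo, active when insulin signalling is low, fell by 1.02, 0.97 and 0.86 in OKSM, Sen and OKSM-Sen. Sugarbabe (sug), a repressor of amylase genes on sugar-rich food, was called at -2.09 in Sen and -1.43 in OKSM-Sen. Cabut (cbt), another sugar-responsive repressor, was called at -0.82 with OKSM, -0.93 with Sen and -0.58 with OKSM-Sen. Fatty acid synthase FASN1 was called at -0.87 in Sen. Akh, a hormone that mobilises stored sugar, was called lower in each construct. It had no counts in any OKSM-Sen library, so no fold is given. Its receptor AkhR was called at -2.28 in OKSM. The part of these regulators in the amylase and maltase results was not tested.

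Among 42 other digestive enzymes, 5 were higher and 9 lower in OKSM, 6 higher and 15 lower in Sen, and 6 higher and 15 lower in OKSM-Sen. The background was 17.3% higher and 15% lower in OKSM, 18.2% and 18.3% in Sen, and 15.7% and 13.3% in OKSM-Sen. The lipase Lip3 rose in each construct (log2 4.85 in OKSM, 4.37 in Sen, 5.23 in OKSM-Sen). The lysozyme LysP was called at 4.62 in Sen and 4.74 in OKSM-Sen, while LysE was called at -3.32 with OKSM, -2.15 with Sen and -2.48 with OKSM-Sen. Of the Jonah serine proteases, Jon99Fii was called at -1.99 with OKSM, -2.63 with Sen and -2.78 with OKSM-Sen, Jon99Ciii at -1.60 in Sen and -2.19 in OKSM-Sen, and Jon99Fi at -2.18 in OKSM-Sen. Others of the family differed in direction, and Jon25Biii was called at 1.68 with OKSM, 1.27 with Sen and 1.34 with OKSM-Sen.

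Of 17 regulators of midgut regions and enterocytes, 7 were called lower with OKSM, 9 with Sen and 5 with OKSM-Sen, and 1, 2 and 1 higher, where 15%, 18.3% and 13.3% of all genes were called lower. The GATA factor srp was called at -1.29 with OKSM, -1.09 with Sen and -0.65 with OKSM-Sen. This gene is also in the list of hemocyte markers below. Also called were tup at -0.89 in OKSM and -1.55 in Sen, and mirr at -1.07 in OKSM and -0.996 in Sen. The gene bab1 was called at -1.04 in OKSM-Sen, and bab2 at -0.56 with OKSM, -0.96 with Sen and -0.62 with OKSM-Sen. Sox21a, a factor of stem cells and enteroblasts, rose by 0.94 with OKSM, 1.55 with Sen and 1.13 with OKSM-Sen.

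Cell type markers moved with the constructs in the ISC-restricted model. ISC and enteroblast markers were called higher for 5 of 8 genes with OKSM, 7 with Sen and 5 with OKSM-Sen, and their summed level was 112 to 177 CPM in OKSM, 134 to 153 CPM in Sen and 118 to 129 CPM in OKSM-Sen, against 58.0 to 77.0 CPM in WT. Markers of enterocytes, the cells that make these enzymes, were called higher for 2, 4 and 2 of 7 genes, with sums of 6020 to 6309 CPM in OKSM, 6930 to 7648 CPM in Sen and 6151 to 6426 CPM in OKSM-Sen, against 4760 to 5773 CPM in WT. Visceral muscle markers were called higher for 6, 3 and 1 of 9 genes, with sums of 1764 to 3154 CPM in OKSM, 1965 to 2215 CPM in Sen and 1397 to 1994 CPM in OKSM-Sen, against 1122 to 1410 CPM in WT. No defining marker of these 3 lists was at 0. Enteroendocrine markers were called higher for 3, 1 and 3 and lower for 0, 2 and 1 of 10 genes, with sums of 653 to 706 CPM in OKSM, 539 to 579 CPM in Sen and 614 to 804 CPM in OKSM-Sen, against 539 to 597 CPM in WT. Malpighian tubule markers had sums of 361 to 471 CPM in OKSM, 299 to 583 CPM in Sen and 155 to 659 CPM in OKSM-Sen, against 204 to 234 CPM in WT, with none of 6 genes called higher and 1, 2 and 1 called lower. Hemocyte markers were called lower for 1, 3 and 3 of 4 genes, with sums of 13.6 to 32.8 CPM in OKSM, 13.6 to 16.2 CPM in Sen and 15.1 to 18.6 CPM in OKSM-Sen, against 25.0 to 35.7 CPM in WT, and He was at 0 in OKSM and Sen. Markers of midgut regions were called lower for 3, 4 and 2 of 6 genes. Their part in the amylase and maltase results was not tested.

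In the ubiquitous model, 2 of 42 other digestive enzymes were higher and 2 lower in OKSM, 8 higher and 2 lower in Sen, and 1 higher and 2 lower in OKSM-Sen. Over all genes tested in this model, 0.55% were called higher and 0.54% lower in OKSM. The shares were 1.28% and 1.2% in Sen, and 0.602% and 0.56% in OKSM-Sen. They are the background for the other lists and markers of this model too. The trypsin gammaTry fell in all constructs (log2 -3.16 in OKSM, -3.50 in Sen, -3.89 in OKSM-Sen), as did deltaTry (-1.70, -2.57 and -3.10). In Sen, the proteases Jon25Bii (3.85) and Jon25Bi (3.41) and the alpha-mannosidases LManIV (3.48) and LManIII (3.12) rose. Elsewhere in the lists, Cht9 was called in OKSM (1.63), Mondo, a glucose-sensing factor, in OKSM-Sen (0.66) and Sox21a in Sen (-1.81). ISC and enteroblast markers were called lower for 3 of 8 genes in Sen, with sums of 50.4 to 54.1 CPM against 71.3 to 112 CPM in WT, and enterocyte markers summed to 4368 and 4571 CPM in Sen, against 5705 to 6364 CPM in WT, with none of 7 called. Sums of ISC and enteroblast markers were 110 to 411 CPM in OKSM (median 113) and 116 to 146 CPM in OKSM-Sen. Those of enterocyte markers were 4747 to 5843 CPM in OKSM and 5061 to 6655 CPM in OKSM-Sen. Their part in the results was not tested.

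The genes whose pattern over the 23 libraries was most like that of the members were sought among 9186 genes, with the members themselves left out, by Pearson correlation of log2 CPM centred within each model. For the sum of Amy-p and Amy-d these were CG34026 (r = 0.916), CG9672 (0.808), Dgp-1 (0.797), the mannosidase LManIV (0.794) and sws (0.780). For Mal-A1, the most abundant maltase, they were Galt (r = 0.927), CG34040 (0.920), CG4363 (0.914), CG4377 (0.913) and CG6028 (0.907). These are descriptions over libraries that share depth and condition, with no test.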

How the data were processed

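Midgut RNA-seq libraries (11 of the ubiquitous and 12 of the ISC-restricted model) were grouped by their labels. Per the submitters' processing notes, reads were aligned with STAR 2.7.1a and quantified with RSEM 1.3.1 on dm6, and the authors deposited RSEM expected counts and TPM values per gene. Whether counting used strand was not stated in the sources consulted. Expected counts were rounded to whole numbers, 390 rRNA, snoRNA and snRNA genes were removed, and genes with a mean of at least 10 reads were tested (9374 in the ISC-restricted model, 9637 in the ubiquitous model, 9602 in both together). Each model was fitted on its own with edgeR 4.0.16 (R 4.3.3; TMM, robust glmQLFit and glmQLFTest), with Benjamini-Hochberg adjustment over all genes tested and an FDR of 10%. Differences between the models came from a fit of all 8 groups. Log2 CPM used a prior count of 2. No pair of replicates agreed within sampling noise. The scripts were tested on simulated data.

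Alternatives were DESeq2 1.42.0, its size factors, no filter, a replicate block, the amylases summed, a joint fit, leaving out each replicate and, chosen after seeing the data, leaving out the libraries numbered 1 or the relabelled pair. All members are named, and of each list the genes called against WT with the largest log2 fold changes, up to 6 per model. The members and lists were chosen with earlier results of these data known. Library totals ran from 14626936 to 46324866 counts.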

Additional observations from a re-analysis of the deposited data

Results flagged for a closer look

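In the ISC-restricted model the interaction term in edgeR was called negative for 3 maltase or amylase genes. Over all genes tested, 11.4% were called negative. The log2 value was -1.12 for Mal-A2, -4.77 for Amyrel and -1.83 for Mal-A4. This term is negative whenever all 3 constructs lie at a like level above WT. For Amyrel the log2 fold changes against WT were 5.50 in OKSM-Sen, 5.24 in OKSM and 5.04 in Sen. No member was called between constructs. Under a joint fit of all 8 groups or without the relabelled pair, 1 of the 3, Mal-A2, passed the FDR of 10%. Leaving out 1 library moved the Amyrel value between -6.69 and -3.96.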

How the results depend on the processing

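Counts of members called in the ISC-restricted model were within 1.5 times under most alternatives. The interaction count of 3 was 1 in the joint fit of all 8 groups and 1 without the relabelled pair. In the ubiquitous model DESeq2 called 1 member over the 4 conditions, 1 in OKSM, 2 in Sen and 2 in the interaction. Between the models it called 2 differences of construct effects. For each of these edgeR called 0, and the cause was not tested. The share of all genes called by DESeq2 is not given, so its counts are no result about the members. Leaving out 1 replicate at a time gave, in the ISC-restricted model, 4 to 7 calls in OKSM, 4 to 6 in Sen, 5 to 7 in OKSM-Sen, 3 to 4 in the interaction, 4 to 6 over the 4 conditions and 0 to 1 between constructs. It gave 0 to 1 in the ubiquitous model over the 4 conditions, in OKSM, in Sen and in the interaction, and 0 in OKSM-Sen and between constructs. Between the models it gave 0 to 4 construct effects and 5 to 9 WT differences. In the ubiquitous model the gained call was Amy-d, without Sen replicate 2 or 3.

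Of 110 log2 fold changes of single members that were called or larger than their standard error, 28 were called, and 18 of these kept their call in every alternative. Of 590 alternatives to called values 43 lost the call and none changed sign, and of 1674 to uncalled values 40 gained one. An uncalled value changed sign in 3, here with its range when 1 replicate was left out: -0.83 to 0.0036 for Amy-d in OKSM-Sen against Sen and -0.10 to 0.68 for Amy-p in Sen against OKSM in the ubiquitous model (turned without Sen replicate 3 in both), and -0.72 to 0.028 for Amy-d in Sen against OKSM in the ISC-restricted model (turned without OKSM replicate 2).

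Replicate numbers were not used as pairs in the main fits. Of same-numbered pairs, 4 of 18 in the ISC-restricted model and 6 of 15 in the ubiquitous model deviated together with a correlation over 0.1. The median correlation was -0.0114 in the ISC-restricted model, against -0.0333 for other pairs. In the ubiquitous model it was 0.0874 (range -0.367 to 0.469), against -0.0444 for other pairs. Whether libraries of the same number share variation was not tested. With the replicate block, 5 members were called in OKSM, 5 in Sen, 6 in OKSM-Sen, 4 in the interaction and 5 over the 4 conditions in the ISC-restricted model, and 0 in the ubiquitous model. Depth limits Amyrel, which rested on 6 to 97 counts in WT of the ISC-restricted model.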
